A study of Callithrix jacchus with 71 samples.

Results

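The genes described here are the transcription factors that mark the ventral and intermediate progenitor domains of the embryonic neural tube: PAX6, NKX2-2, NKX6-1, NKX6-2, OLIG2, DBX1, DBX2, IRX3 and IRX5. The set was drawn up by name from their known roles, with earlier results of these data known, and the genes were followed in single marmoset cells. Of these 9 genes, 6 have a row among the 23561 named genes of the table of normalized counts: PAX6, IRX3, IRX5, DBX2, NKX6-1 and NKX6-2. NKX2-2, OLIG2 and DBX1 are not analysed here, so the pairs PAX6 and NKX2-2, IRX3 and OLIG2, and DBX1 and NKX6-2 could not be examined.

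Along the dorsoventral axis of the neural tube, Sonic hedgehog from the notochord and floor plate is strongest ventrally, and BMP and WNT signals from the roof plate are strongest dorsally. In chick and mouse, Sonic hedgehog represses class I factors, among them PAX6, IRX3, DBX1 and DBX2, and induces class II factors, among them NKX2-2, NKX6-1, NKX6-2 and OLIG2. Facing pairs such as DBX2 with NKX6-1 repress each other, which sharpens the borders between domains, so that a progenitor normally settles on a single combination of factors.

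The data cover 65 neural stem cell-like cells induced from fibroblasts (iNSLCs, labelled E01F A2), 1 iPSC (E01F A-2-2), 4 ESCs (No.40 line) and 1 E01F fibroblast, all from the common marmoset and read by RamDA-seq, a full-length single-cell RNA method. By the study's methods, the iNSLCs grew from E01F embryonic skin fibroblasts after electroporation of the episomal EP-A vectors, were read at passage 1 as the A-2 clone and were kept in NSM, a naive-type stem cell medium. The vectors bring in human LIN28, L-MYC, KLF4, SOX2 and OCT4 and a dominant-negative mouse p53, and iNSLC clones still held them at later passages. The iPSC line came from such cells after a change to ESC medium. Each group is a single source in the labels, so the cells of a group are not replicates of a condition, no test between groups was made, and the iPSC and ESCs are set together as 5 pluripotent stem cell (PSC) cells.

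Levels are given as normalized counts, the reads of a cell scaled by a factor of its own, and a gene counts as detected when it has at least 1 read. Reads on genes ran from 82268 to 695241 in iNSLCs (median 268128) and from 134328 to 1003718 in PSC cells, and came to 1294430 for the fibroblast. All 10 of the neural stem cell markers checked had reads in at least 50% of iNSLCs, against 0 of 8 pluripotent and 2 of 12 fibroblast markers. Of all named genes, 44.6% had such reads. Summed fibroblast markers came to 0 to 1073 normalized counts in iNSLCs, 77.2 to 391 in PSC cells and 27056 in the fibroblast, and PRRX1 and FAP had no reads in any iNSLC. Intervals are exact Clopper-Pearson 95% intervals for shares of cells and exact Poisson intervals for reads. They cover counting error only, since reads were not tagged by molecule.

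In the iNSLCs the 6 genes fell into a widely detected group, PAX6, IRX3 and IRX5, and a sparse group, DBX2, NKX6-1 and NKX6-2. IRX3, the class I factor that faces OLIG2 in the chick neural tube, had reads in 63 of 65 iNSLCs (96.9%, interval 89.3 to 99.6). PAX6, a class I factor of the intermediate progenitors that also acts in eye and forebrain, was likewise detected in 63 of 65. IRX5, the neighbour of IRX3 in the Iroquois cluster, was detected in 62 of 65 (95.4%, interval 87.1 to 99.0). Among all named genes 44.6% had reads in at least 50% of iNSLCs, so wide detection alone does not set these 3 genes apart.

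DBX2, a class I factor of the intermediate domains, was detected in 6 of 65 iNSLCs (9.23%, interval 3.46 to 19.0). NKX6-1, its ventral counterpart and a class II factor that reaches from the motor neuron domain into its neighbours, was detected in 3 (4.62%, interval 0.962 to 12.9). NKX6-2, a close relative of NKX6-1, was detected in 2 (3.08%, interval 0.375 to 10.7). Detection in 1 to 6 iNSLCs was found for 24.3% of all named genes. Absence of reads in the remaining cells was not shown to be absence of the transcript at this depth.

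The levels of the widely detected genes varied over a broad range between cells of the culture. IRX3 had a lowest value of 0, a median of 30.1 and a highest value of 124 normalized counts, with a mean of 35.3 ± 27.0 (SD over 65 cells). IRX5 ran from 0 through a median of 20.8 to 84.9, with a mean of 26.5 ± 22.1. PAX6 ran from 0 through 18.2 to 87.7. The coefficients of variation were close to each other, at 0.763 for IRX3, 0.785 for PAX6 and 0.834 for IRX5. A value of at least 10 was reached by IRX3 in 56 iNSLCs, by PAX6 in 48 and by IRX5 in 47. Over the 65 cells, r between the log2 level of a gene and the log2 reads of the cell was 0.12 for PAX6, -0.07 for IRX3 and -0.07 for IRX5.

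**Figure D1:**
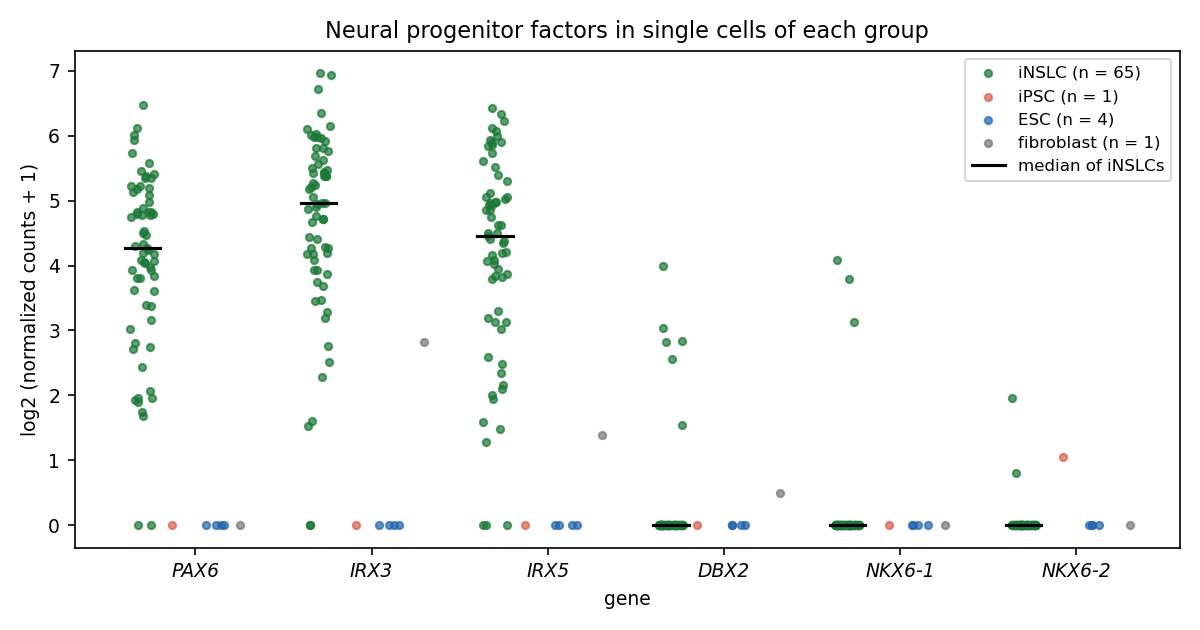
Each point is 1 cell, with the log2 of normalized counts + 1 on the vertical axis and the 6 genes with a row on the horizontal axis; horizontal spread within a group only separates points, and black lines mark the median of the 65 iNSLCs. PAX6, IRX3 and IRX5 lie above 0 in 62 or 63 iNSLCs and at 0 in all 5 PSC cells, while DBX2, NKX6-1 and NKX6-2 lie at 0 in all but 6, 3 and 2 iNSLCs.

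The sparse genes had few reads even where they were detected. DBX2 had values of 14.9 in iNSLC 29 (11 reads), 7.25 in iNSLC 34 (14 reads), 4.93 in iNSLC 45 (5 reads), 6.12 in iNSLC 48 (8 reads), 1.93 in iNSLC 55 (4 reads) and 6.10 in iNSLC 63 (3 reads). NKX6-1 had values of 7.73 in iNSLC 27 (8 reads), 12.8 in iNSLC 45 (13 reads) and 16.05 in iNSLC 76 (19 reads). NKX6-2 had 0.742 in iNSLC 44 (1 read) and 2.90 in iNSLC 89 (2 reads). Every DBX2 and NKX6-1 cell therefore had at least 3 reads of the gene, whereas NKX6-2 rested on 3 reads in all. A value of 10 or more was reached by NKX6-1 in 2 cells, by DBX2 in 1 and by NKX6-2 in 0.

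PSC cells and the fibroblast were the background for these counts. None of PAX6, IRX3, IRX5, DBX2 and NKX6-1 had a read in any of the 5 PSC cells, and NKX6-2 had 1 read (1.07 normalized counts) in the iPSC. Against a floor of 3 reads over the PSC cells, IRX3 was at least 54.6-fold higher in iNSLCs, with a mean of 35.3, against 0 in PSC cells. IRX5 was at least 40.9-fold higher, with means of 26.5 in iNSLCs and 0 in PSC cells, and PAX6 was at least 35.2-fold higher. These 3 genes were past a 4-fold difference of means after a pseudocount of 1, as were 3.18% of all named genes in that direction and 5.29% of the genes averaging at least 1. With a pseudocount of 10, only IRX3 of the 6 genes passed 4-fold, beside 0.535% of all genes. PAX6, IRX3 and IRX5 were also 3 of the 134 genes (0.569%) with reads in at least 50% of iNSLCs and in no PSC cell. The log2 ratio of iNSLCs over PSC cells ran from 4.57 to 5.18 for PAX6, IRX3 and IRX5. For DBX2, NKX6-1 and NKX6-2 it ran from -0.20 to 0.71. The median over the 6 genes, 2.64, lies between these groups and near no gene, and that over all named genes was -0.10. NKX6-1 and DBX2 averaged 0.563 and 0.634 in iNSLCs, under the 0.648 that 3 reads over the PSC cells are worth, so no fold is given for them or for NKX6-2, which was lower still.

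The fibroblast, the cell type from which the iNSLCs were made, had reads of both Iroquois genes and none of PAX6. IRX3 averaged 35.3 in iNSLCs, against 6.07 in the fibroblast (15 reads, interval 8.40 to 24.7 reads). That is 5.82-fold higher in iNSLCs (interval 3.53 to 10.4), with 58 of 65 iNSLCs above the fibroblast. IRX5 averaged 26.5 in iNSLCs, against 1.62 in the fibroblast (4 reads, interval 1.09 to 10.2 reads), a 16.4-fold difference (interval 6.39 to 60.1). PAX6 was at least 18.8-fold higher in iNSLCs, set against a floor of 3 reads since the fibroblast had none. NKX6-1 and NKX6-2 had no reads in the fibroblast either, and DBX2 had 1 (0.405 normalized counts). With a single fibroblast, the spread between fibroblasts is unknown. Normalized counts summed to 523792 in the fibroblast and to 218219 to 386818 in iNSLCs, so these ratios depend on the scaling. Ratios to the fibroblast at equal totals were not computed.

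In single iNSLCs the 3 widely detected factors were found together. Reads of PAX6, IRX3 and IRX5 were all present in 59 of 65 cells. The most frequent combination was these 3 genes and no other of the 6, in 49 cells. Another 5 cells had them with DBX2 (iNSLCs 29, 34, 48, 55 and 63), 2 with NKX6-1 (27 and 76), 2 with NKX6-2 (44 and 89) and 1 with both NKX6-1 and DBX2 (45). All 10 cells with a sparse factor thus also had PAX6, IRX3 and IRX5, as did 59 of all 65. Pairs were found together about as often as the product of their single shares gives. PAX6 and IRX3 met in 61 cells (product 61.1), PAX6 and IRX5 in 60 (60.1) and IRX3 and IRX5 in 61 (60.1). The median cell had 3 of the 6 genes, and the range was 1 to 5.

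The remaining 6 cells each lacked at least 1 widely detected factor. PAX6 was at 0 in iNSLC 31, with IRX3 at 4.72 and IRX5 at 66.1, and in iNSLC 40, with IRX3 at 28.2 and IRX5 at 15.8. IRX5 was at 0 in iNSLCs 32 and 64, where IRX3 stood at 17.3 and 50.3. IRX3 was at 0 in iNSLC 42, with PAX6 at 5.58 and IRX5 at 21.8. The only cell without either Iroquois gene was iNSLC 75, which had PAX6 at 39.8 and the dorsal factors PAX3 and PAX7 at 201 and 85.8. Shallow reading accompanied some of these gaps and not others, since iNSLCs 31 and 32 were among the shallowest (109907 and 115236 reads) while iNSLC 42 was among the deepest (540363 reads). Its part in the gaps was not tested.

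The cross-repressing pair that could be examined was DBX2 and NKX6-1. They were detected together in iNSLC 45 only, which is 16.7% of the 6 DBX2 cells and 33.3% of the 3 NKX6-1 cells. The product of the shares of the genes corresponds to 0.277 cells of 65, so both overlap and exclusion are beyond what these few cells can show. In iNSLC 45, NKX6-1 stood at 12.8 and DBX2 at 4.93, beside PAX6 at 18.7, IRX3 at 62.1 and IRX5 at 29.6. Its PTCH1 value, 358 normalized counts, was the highest of all 65 iNSLCs. NKX6-1 and NKX6-2, and DBX2 and NKX6-2, were found together in 0 cells. With 2 NKX6-2 cells these zeros carry little information.

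**Figure D2:**
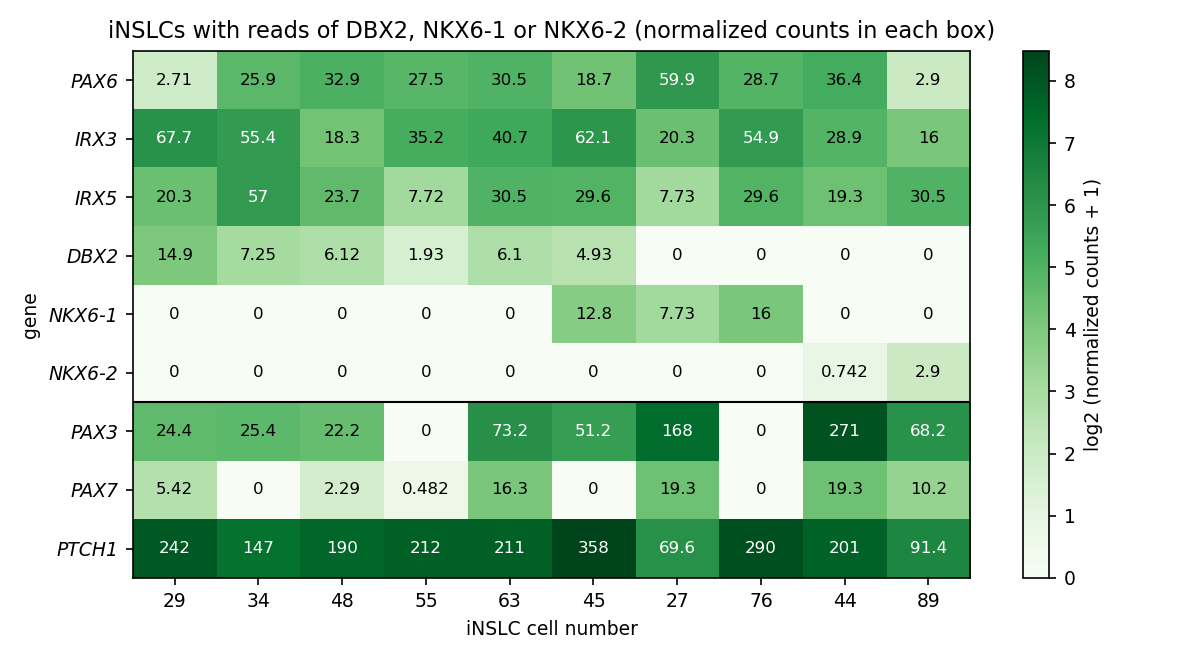
Columns are the 10 iNSLCs with reads of DBX2, NKX6-1 or NKX6-2, rows are the 6 factors and, under the black line, PAX3, PAX7 and PTCH1; each box holds the normalized counts and its colour the log2 of that value + 1. PAX6, IRX3 and IRX5 are above 0 in all 10 cells, DBX2 and NKX6-1 meet only in cell 45, and PAX3 is at 0 in cells 55 and 76.

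To place the 6 genes on the dorsoventral axis, factors of other domains were counted in the same cells. Of 18 dorsal progenitor factors, 17 had a row and 10 had reads in at least 50% of iNSLCs, as did 44.6% of all named genes. PAX3, a factor of the dorsal progenitors, was detected in 62 cells and PAX7, its close relative, in 53. ZIC2, a zinc-finger factor of the dorsal neural tube, was detected in 65. In PSC cells PAX3 was detected in 0 of 5, PAX7 in 1 and ZIC2 in 4, and ZIC2 was 2.55-fold higher in iNSLCs. PAX6 and PAX3 were detected in the same cell in 60 iNSLCs, and PAX6, PAX3 and PAX7 in 50. The product of the shares of PAX6 and PAX3 corresponds to 60.1 cells, so this overlap is what their wide detection alone gives. In all, 9 of the 17 dorsal factors were at least 4-fold higher in iNSLCs than in PSC cells, beside the 3.18% of all genes, and their median log2 ratio was 2.61. The roof plate factors MSX1 and GDF7 were detected in 46 and 32 cells, ATOH1 of the most dorsal progenitors in 2, and OLIG3 of the dorsal interneuron progenitors in 15.

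At the ventral end detection was sparse. Of 9 floor plate and most ventral factors, 4 had a row. SHH, the ligand itself, was detected in 1 iNSLC, FOXA1 in 1 and SIM1, a factor of ventral interneurons, in 2. The exception was NTN1, the axon guidance ligand netrin-1, which was detected in 53 iNSLCs with a mean of 42.9. It averaged 8.94 in PSC cells, a 4.80-fold difference, and stood at 256 in the fibroblast. NTN1 was the 1 gene of these 4 at least 4-fold higher in iNSLCs than in PSC cells, beside 3.18% of all genes. A further list of progenitor factors, not all of them ventral, had 8 genes with a row. Of these, 2 had reads in at least 50% of iNSLCs, beside 44.6% of all named genes. The 2 were PRDM8 (60 cells), a factor of intermediate progenitors in mouse, and PRDM13 (40 cells), a regulator of dorsal inhibitory neurons. FOXN4, which acts in progenitors of the ventral interneurons, was detected in 0 of 65 iNSLCs (interval 0 to 5.52%), where a limit of 3 cells is 4.62%. It had reads in 3 of 5 PSC cells.

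**Figure D3:**
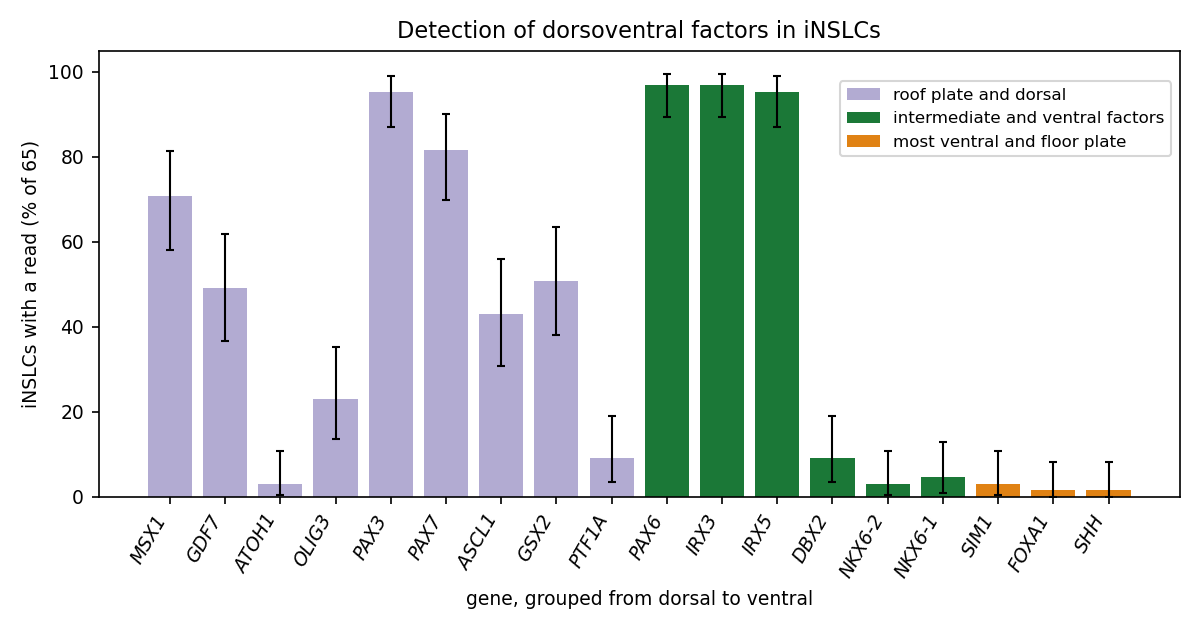
Bars give the percentage of the 65 iNSLCs with at least 1 read of each gene, with exact Clopper-Pearson 95% intervals, for selected genes grouped from dorsal (left) to ventral (right). PAX3 and PAX7 on the dorsal side stand at 95.4% and 81.5%, PAX6, IRX3 and IRX5 at 95.4% to 96.9%, and DBX2, NKX6-2, NKX6-1, SIM1, FOXA1 and SHH at 9.23% or less. The other dorsal genes plotted run from 3.08% (ATOH1) through 9.23% (PTF1A) to 70.8% (MSX1). NTN1, on the floor plate list and detected in 81.5% of iNSLCs, is not plotted. Nor are the dorsal genes GSX1 (1.54%), LMX1B (4.62%), MSX2 (81.5%) and the ZIC genes, with ZIC2 at 100%.

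Factors of the neurons that arise from these domains were sparse. Of 17 factors of postmitotic ventral neurons, 11 had a row and 8 had a read in any iNSLC. Of the 11, 0 had reads in at least 50% of iNSLCs, beside 44.6% of all named genes. LHX4, a LIM factor of motor neurons and V2 interneurons, was detected in 29 iNSLCs and in all 5 PSC cells, and averaged 5.003 in iNSLCs, against 45.8 in PSC cells. In this list 0 genes were at least 4-fold higher in iNSLCs and 3 were at least 4-fold lower, and 7.04% of all genes were lower by that measure. PAX6 is also used in eye, cerebral cortex and pancreas. In iNSLCs 0 of 4 eye markers, 0 of 2 pallium markers and 0 of 1 pancreatic endocrine markers with a row had reads in at least 50% of cells. Of 5 oligodendrocyte precursor markers, 1 did, PTPRZ1, which neural stem cells use as well, while SOX10 was detected in 5 cells.

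Because Sonic hedgehog sets the level of these factors in the neural tube, components and targets of the pathway were counted. All 10 had a row, and 7 had reads in at least 50% of iNSLCs, as did 44.6% of all named genes. PTCH1, the Hedgehog receptor and a direct target of the pathway, had a lowest value of 31.2, a median of 129 and a highest value of 358 in iNSLCs, against 14.96 to 62.3 in PSC cells. Its mean was 4.04-fold higher in iNSLCs than in PSC cells (interval 3.59 to 4.56). BOC, a co-receptor, was detected in 65 iNSLCs with a mean of 614, against 8.54 in PSC cells. GLI1, the transcription factor and target often read as a measure of pathway activity, went the other way, averaging 1.14 in iNSLCs and 25.3 in PSC cells. It was detected in 8 of 65 iNSLCs and in 5 of 5 PSC cells, where it ran from 7.48 to 44.2. HHIP, a target that binds the ligand, was detected in 25 iNSLCs and 0 PSC cells. By the 4-fold measure after a pseudocount of 1, 4 of the 10 genes were higher and 1 lower in iNSLCs, beside 3.18% and 7.04% of all genes. The 4 were BOC, GAS1, GLI3 and HHIP, and the lower gene was GLI1. PTCH1, with a log2 ratio of 1.98 on this measure, was just short of it.

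PTCH1 and the dorsal factors PAX3 and PAX7 had different medians in iNSLCs with DBX2 and those without. PTCH1 had values of 147 to 358 (median 212) in the 6 cells with DBX2, against 31.2 to 348 (median 113) in the 59 without. The ranges overlapped, and 22 of the 59 cells without DBX2 reached 147. In 2.99% of the 6118 genes averaging at least 10 in iNSLCs, all 6 DBX2 cells lay above the median of the other cells, as they did for PTCH1. PAX3 ran the opposite way, with a median of 24.9 in cells with DBX2 and 80.3 in cells without. All 6 DBX2 cells were below the median of the others, which held for 3.47% of the same genes. PAX7 had medians of 1.39 in cells with DBX2 and 14.7 in cells without, and the 17 dorsal factors summed to a median of 133 in cells with DBX2, against 362 in cells without. The 10 Hedgehog genes summed to a median of 883 in cells with DBX2 and 1040 in cells without. BOC had the highest iNSLC mean of the 10, at 614, so this sum mostly follows BOC. HHIP was detected in 2 of 6 cells with DBX2 and 23 of 59 without, and GLI1 in 1 of 6 with DBX2 and 7 of 59 without. These genes were chosen after their values were seen, and 6 cells of a single culture allow a description only.

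Other measures moved with DBX2 detection. SOX2 had a median of 38.2 in cells with DBX2 and 93.6 in cells without, and reads of the vectors' human SOX2 cannot be told apart from it here. COL1A2, a collagen gene of fibroblasts, had a median of 126 in cells with DBX2 and 13.8 in cells without, whose highest value was 1069. Of the 12 fibroblast markers, 2 to 6 were detected in cells with DBX2 and 0 to 6 in cells without, with summed values of 26.4 to 219 and 0 to 1073, and COL3A1, DCN, LUM, TWIST2, PRRX1 and FAP were at 0 in every DBX2 cell. The median depth was 319775 reads in cells with DBX2 and 258619 in cells without. Their part in the difference was not tested.

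**Figure D4:**
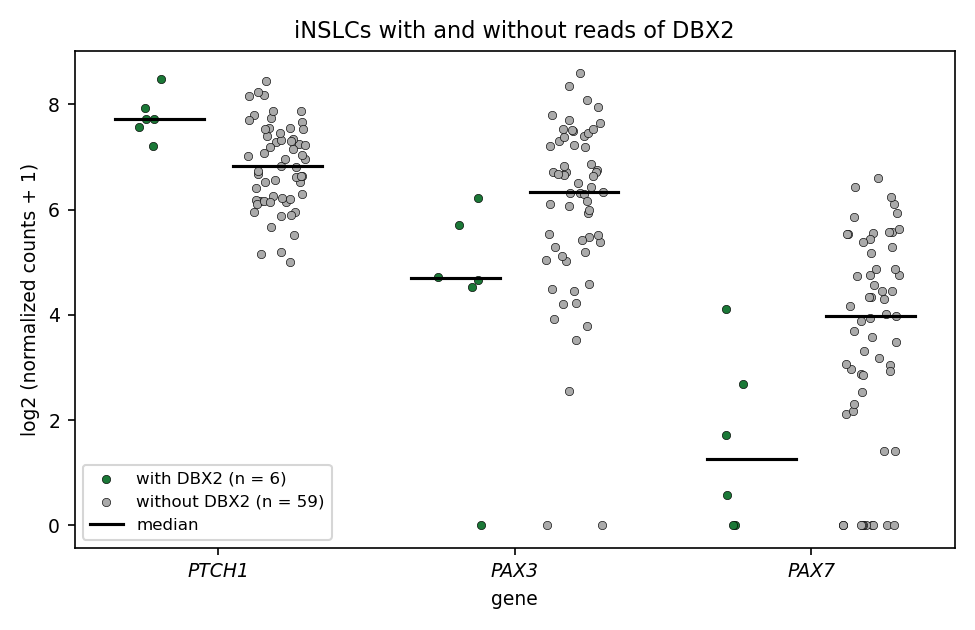
Each point is 1 iNSLC, with the log2 of normalized counts + 1 on the vertical axis, for the 6 cells with DBX2 reads (green) and the 59 without (grey); black lines are medians. PTCH1 is at 147 or above in the cells with DBX2, PAX3 lies below the median of the other cells in all 6, and all 3 pairs of ranges overlap.

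The iNSLCs were also split by their cell number, at a boundary that an earlier analysis of these data set from the profiles. What the numbers stand for is not in the labels. The 38 iNSLCs numbered 57 or above had a median of 208746 reads and the 27 numbered 56 or below had 357910. DBX2 was detected in 1 of 38 cells numbered 57 or above (2.63%) and in 5 of 27 numbered 56 or below (18.5%), so that 5 of the 6 DBX2 cells have a low number. Within the cells numbered 56 or below, the PTCH1 median was 212 in the 5 cells with DBX2 and 72.7 in the 22 without, and the PAX3 median was 24.4 with DBX2 and 63.1 without. In the same set COL1A2 had medians of 143 with DBX2 and 1.14 without, and SOX2 had 32.9 with DBX2 and 67.9 without. The summed Hedgehog genes had medians of 818 with DBX2 and 787 without in this set, the reverse of their order over all iNSLCs.

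Of the widely detected factors, IRX3 and IRX5 were higher in the cells numbered 57 or above. IRX5 had a median of 30.0 in cells numbered 57 or above and 15.8 in cells numbered 56 or below, a log2 ratio of means of 0.72. IRX3 had medians of 40.6 in cells numbered 57 or above and 20.3 in cells numbered 56 or below, with a log2 ratio of 0.56. PAX6 did not share this pattern, with medians of 18.7 in cells numbered 57 or above and 16.1 in cells numbered 56 or below and a log2 ratio of 0.03. A log2 ratio of at least 0.5 was found for 17.6% of all named genes and for 29.5% of those averaging at least 10, so such a ratio is common among genes of this level. DBX2 ran the other way, with means of 0.160 in cells numbered 57 or above and 1.30 in cells numbered 56 or below and a log2 ratio of -0.99. That ratio rests on 1 cell with DBX2 in the first set and 5 in the second. The share of all genes lower by as much was not counted. After cells were scaled to the same total the ratios were 0.56 for IRX5, 0.37 for IRX3 and -1.13 for DBX2. In the 33 and 24 cells deep enough to be thinned to 134328 reads, ratios of reads after a pseudocount of 1 were 0.41 for IRX5, 0.22 for IRX3 and -0.62 for DBX2. PAX6, IRX3 and IRX5 were all detected in 94.7% of cells numbered 57 or above and in 85.2% of cells numbered 56 or below.

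**Figure D5:**
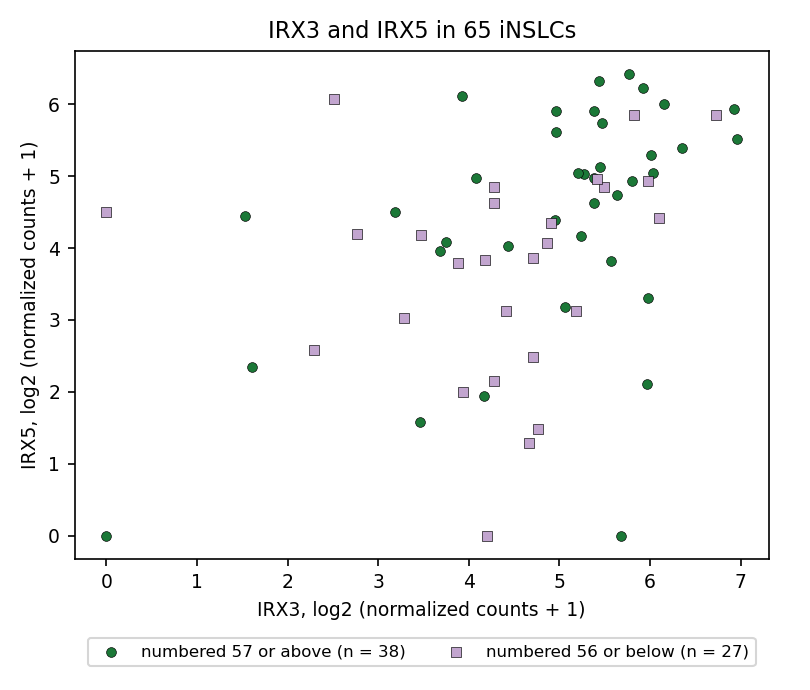
Each point is 1 iNSLC, with the log2 of IRX3 normalized counts + 1 on the horizontal axis and of IRX5 on the vertical axis, for cells numbered 57 or above (green circles) and 56 or below (purple squares). The points spread widely (r = 0.39 over 65 cells, 0.50 in the green set and 0.14 in the purple set), and 1 cell lies at 0 for both genes.

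Levels of the widely detected factors were loosely related from cell to cell. Pearson's r over 65 cells was 0.39 between IRX3 and IRX5 on the log2 scale, with a Spearman's rho of 0.47. Pearson's r was 0.50 in cells numbered 57 or above and 0.14 in cells numbered 56 or below. Spearman's rho was 0.43 and 0.30 in the same sets, so how weak the relation was in the second set depends on the measure. PAX6 had an r of 0.18 with IRX3 and -0.02 with IRX5 over all 65 cells. In cells numbered 56 or below PAX6 had an r of 0.20 with IRX3, above that between the Iroquois genes. By rank the order was reversed, with a rho of 0.14 for PAX6 and IRX3 and 0.30 for IRX3 and IRX5. Cells of a single culture share their origin, and depth and cell number enter each of these values, which are descriptions.

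IRX3 and IRX5 lie next to IRX6 with 0 coding genes between them in the RefSeq marmoset annotation (calJac240), and IRX1, IRX2 and IRX4 form the other Iroquois cluster. IRX1 was detected in 60 iNSLCs and IRX2 in 59, while IRX4 and IRX6 were detected in 6 and 5. Detection did not follow the clusters, since each cluster held both widely and sparsely detected genes. Reads of IRX1, IRX2, IRX3 and IRX5 were present together in 51 cells, and the other cells had 3 (12 cells) or 2 (2 cells) of them. IRX1 differed from IRX3 in its relation to the fibroblast. Its mean was 30.7 in iNSLCs and 30.3 in the fibroblast, a ratio of 1.01 (interval 0.806 to 1.28). This near equality holds for the scaling used, under which the fibroblast had the larger total. IRX2 averaged 34.6 in iNSLCs and 15.8 in the fibroblast. IRX1 was without reads in PSC cells, a difference of at least 47.3-fold. Of the 7 listed relatives with a row, IRX1 and IRX2 were the only 2 with reads in at least 50% of iNSLCs, beside 44.6% of all named genes.

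The genes whose levels followed each widely detected factor most closely over the 65 iNSLCs were taken from 10688 genes by Pearson's r on the log2 scale. For PAX6 they were TOX, a high-mobility-group factor (r = 0.50), FBXO21 (0.47), RBM38 (0.46), PTMS (0.45) and PTH1R (0.45). For IRX3 they were R3HCC1 (0.50), the WNT receptor FZD7 (0.50), LRIG1 (0.49), LRIG3 (0.49) and SOX4 (0.49), the last a factor of immature neurons and progenitors. For IRX5 they were GBX2, a homeobox factor of the anterior hindbrain (0.55), the neurofilament gene NEFM (0.51), GSTP1 (0.51), FBLIM1 (0.50) and NSDHL (0.48). No gene stood on more than 1 of these lists. When cells were scaled to the same total, 3 of 5 of these genes were again among the closest for PAX6. For IRX3 it was 5 of 5 and for IRX5 4 of 5. The same cells entered both rankings, so this is not an independent check. As the highest of 10688 values over 65 cells, r of this size can also arise among unrelated genes, which was not tested. IRX5 and GBX2 had an r of 0.50 in cells numbered 57 or above and 0.56 in cells numbered 56 or below. Some other pairs differed more between these sets. In the same order, r was 0.65 and 0.22 for IRX3 and LRIG1, and 0.63 and 0.27 for IRX5 and NEFM. For PAX6 and PTMS it was 0.29 and 0.60. CRNDE, the long noncoding gene beside IRX5 in the human genome, had an r of 0.47 with IRX3 and 0.40 with IRX5. It was picked for its position, but after its values were seen.

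Depth was equalised by drawing 134328 reads from each cell, which kept 57 iNSLCs and left out 8 that were shallower. PAX6 was then detected in 96.5%, IRX3 in 96.5% and IRX5 in 91.2% of cells. DBX2 was detected in 10.5%, NKX6-1 in 5.26% and NKX6-2 in 3.51%. At equal depth the widely detected factors again lay far above the sparse ones, and PAX6, IRX3 and IRX5 were found together in 86.0% of the thinned cells.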

How the data were processed

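Single cells had been sorted into plates and read by RamDA-seq. The deposited signal is a table of normalized counts for 71 cells, which the authors made by scaling each cell with a factor. Tools listed in the submitters' processing notes are Seurat 3.0.0, featureCounts 1.5.1, STAR 2.6.0c and Trimmomatic. Neither genome build nor annotation is given in the sources used here. Values divided by that of 1 read in their cell came to whole numbers (tolerance 0.02, largest deviation 0.00115), so reads were recovered. An unnamed row, 0.449% of a cell or less, was left out. A whole read weighs more in a shallow cell, so detection depends on depth.

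The 9 genes and all lists were chosen with earlier results of these data known. Lists comprised dorsal, floor plate, Hedgehog, other progenitor, postmitotic neuron and same-family genes, and markers of neural stem, pluripotent, fibroblast, oligodendrocyte precursor, eye, pallium and pancreatic cells. Named genes were the 9 genes, the 5 most alike for each one detected in at least 20 iNSLCs (mean at least 1, symbols not starting with LOC), and up to 4 of each list with the highest iNSLC mean. GLI1, HHIP, PAX7, SOX2, COL1A2 and the further listed genes named or plotted are outside it and were picked with their values known. CRNDE was picked for its position, also after its values were seen. Ratios are log2 of (mean + 1) over (mean + 1); folds against a group without reads use 3 reads over the group (0.648 normalized counts in PSC cells). Being 1 culture a group, no test was made. Alternatives were a pseudocount of 10, scaling to the same total, thinning, other detection limits, medians, and leaving out the 7 iNSLCs with the fewest genes or each PSC cell. Steps were tested on simulated data and run in Python 3.11.15 with numpy 2.4.6, pandas 2.3.3, scipy 1.17.1 and matplotlib 3.10.9.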

Additional observations from a re-analysis of the deposited data

Results flagged for a closer look

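In the 4 ESCs, 3 of 13 genes examined had a cell that stood apart from the rest, and all 3 did so in ESC 10, the deepest cell of the group (1003718 reads). PTCH1 was at 62.3 normalized counts in ESC 10, while the other ESCs lay between 30.8 and 33.2. PAX7 was at 6.07 and IRX2 at 3.64 in ESC 10, and both were at 0 in the other ESCs. The limit used is one that chance passes in about 1 in 20 groups of spread values, but with the other ESCs at 0 any read sets a cell apart, and genes of the same cell are not separate groups. The part of depth in these values was not tested.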

How the results depend on the processing

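Of 164 values recomputed under an alternative, 3 counts of genes and 21 other values moved. With a pseudocount of 10, 1 of the 6 genes (IRX3) was at least 4-fold higher in iNSLCs than in PSC cells, in place of 3, and 0.535% of all genes were. Leaving out each PSC cell in turn left 3 of 6 genes, a range of 3 to 3. By a log2 ratio of at least 0.5, 2 of the 6 genes were higher in cells numbered 57 or above than in those numbered 56 or below. The count was 1 after scaling to the same total and 0 after thinning, both alternatives chosen after seeing the data. DBX2 was lower by that measure in each setting, but the share of all genes in that direction was not counted. At a value of at least 10, detection was 86.2% for IRX3, 73.8% for PAX6, 72.3% for IRX5 and 1.54% for DBX2. Without the iPSC, the NKX6-2 log2 ratio of iNSLCs over PSC cells was 0.08, in place of -0.20, and both rest on 3 reads in iNSLCs. No paired analysis was possible because each cell number belongs to a single group and no test was made. Depth limits what 0 reads in a cell can show, and thinning took IRX5 detection to 91.2%, against 96.5% in the same cells before it.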
